A study of Mus musculus with 6 samples.

Results

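The genes described here encode secreted bone morphogenetic proteins (BMPs), their receptors and their extracellular antagonists, in inguinal white adipose tissue of mice. They were 4 ligands (Bmp2, Bmp4, Bmp6 and Bmp7), 4 receptors (Bmpr1a, Bmpr1b, Bmpr2 and Acvr1c) and 2 antagonists (Grem1 and Nog), taken from a list of genes with roles in the commitment of cells to brown or white fat. Every probe set annotated to one of these genes was taken, which gave 10 of the 34760 probe sets, 1 for each of the 10 genes, among 19937 genes measured. The samples were 3 Atf7 knockout mice (ATF7 KO, here KO) and 3 wild-type mice (WT), with 1 array for each mouse. All were male C57BL/6 mice aged 5 weeks, bred from Atf7 heterozygotes as littermates and kept under specific-pathogen-free conditions, and the fat was taken fresh with no treatment named. Atf7 encodes a transcription factor of the ATF/CREB family. Which exons the knockout allele lacks is not given in the sources used here. The study addressed the role of ATF7 in adipocyte differentiation and in the thermogenic gene programme.

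BMPs are dimeric signalling proteins of the TGF-beta superfamily. A ligand brings together type I receptors, such as those encoded by Bmpr1a and Bmpr1b, and type II receptors such as that of Bmpr2, and the activated type I receptor phosphorylates SMAD1, SMAD5 and SMAD9, which enter the nucleus with SMAD4. Gremlin and noggin, the products of Grem1 and Nog, bind BMPs outside the cell and keep them from the receptors. In fat, BMP4 and BMP2 are known for committing mesenchymal precursors to the adipocyte lineage, and BMP7 and BMP6 for favouring brown adipocytes. Acvr1c encodes ALK7, a type I receptor for activin B, GDF3 and nodal rather than for BMPs, which signals through SMAD2 and SMAD3 and restrains lipolysis in adipocytes.

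Promoter sequence from RefSeq (build GRCm38.p6) covered 7 of the 10 genes with 10 windows, each taken here as the 250 bases upstream of an annotated transcription start. Those of Bmp6, Bmpr2 and Grem1 are shown because these genes had the largest or most separated differences described below. The first, on chr13:38345466-38345715, belongs to Bmp6 on the plus strand, the next, on chr1:59764029-59764278, to Bmpr2 on the plus strand, and the last, on chr2:113758649-113758898, to Grem1 on the minus strand. Each runs 5′ to 3′ and ends at the base before the start, and capitals mark GGCGCC, a palindrome found among sites bound by BMP-activated SMADs.
Bmp6: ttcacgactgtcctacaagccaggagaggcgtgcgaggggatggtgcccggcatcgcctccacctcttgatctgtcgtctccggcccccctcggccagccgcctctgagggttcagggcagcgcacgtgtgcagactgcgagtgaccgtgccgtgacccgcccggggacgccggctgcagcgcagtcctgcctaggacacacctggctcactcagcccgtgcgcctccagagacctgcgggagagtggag
Bmpr2: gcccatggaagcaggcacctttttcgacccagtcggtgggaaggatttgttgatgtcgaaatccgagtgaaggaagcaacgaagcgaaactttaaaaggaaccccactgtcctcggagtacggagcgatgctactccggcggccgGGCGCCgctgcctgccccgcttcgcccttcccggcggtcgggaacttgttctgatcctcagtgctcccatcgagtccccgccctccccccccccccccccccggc
Grem1: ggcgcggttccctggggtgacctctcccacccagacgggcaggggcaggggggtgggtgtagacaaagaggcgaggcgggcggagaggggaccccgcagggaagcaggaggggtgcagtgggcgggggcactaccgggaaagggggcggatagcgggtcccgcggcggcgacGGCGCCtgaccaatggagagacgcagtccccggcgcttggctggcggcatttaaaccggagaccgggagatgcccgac

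Motifs were searched on both strands of the 250 bases. TGACGTCA, the full cyclic AMP response element recognised by ATF/CREB proteins, was in 0 of the 10 windows and in 1.55% of all 32851 windows. Its core TGACG, which the full element contains, was in 0 of the 10 and in 17.8% of all. TGACTCA, the AP-1 site bound by JUN dimers, was in 0 of the 10 and in 4.46% of all. GGCGCC was in 3 of the 10 windows, those of Bmpr1a, Bmpr2 and Grem1, and in 9.59% of all. Counted back from -1 at the base before the start, it began at position -105 in Bmpr2, -78 in Grem1 and -198 in Bmpr1a. The share of G and C was 68.8% in the Bmp6 window, 64.0% in that of Bmpr2 and 72.0% in that of Grem1. It ran from 46.8% (a Bmpr1b window) to 79.6% (an Acvr1c window) over the 10, with a median of 52.4% over all windows. Such letter matches describe the windows and show no binding.

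Expression values were log2 values per probe set, so a difference of 1 would be a doubling. Array medians ran from 6.41 to 6.49. Adipoq, Plin1 and Fabp4, defining genes of mature adipocytes, lay between 11.67 and 12.78 on all 6 arrays. Of the 2 Atf7 probe sets, 10433032 was 8.95, 9.20 and 9.07 in WT and 6.22, 6.53 and 6.49 in KO, as the labels require, whereas 10433034 differed by -0.17 (95% interval -0.45 to 0.11). KO replicate 3 stood apart from the other arrays, at 66.56 on the first principal component against -21.29 to 12.39 for the rest. B cell and T cell markers moved with it. The lymphocyte score, the mean of 21 such genes after centring each on its own mean, was 0.71, 0.53 and 0.81 in WT, and in KO it was -0.09 in replicate 1, 0.65 in replicate 2 and -2.61 in replicate 3. All 21 were lower in the KO mean, while 53% of all genes were higher. In whole tissue, fewer cells of a type and less RNA per cell cannot be told apart.

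Across the BMP genes, Bmp6 and Bmpr2 were higher in every KO mouse than in every WT mouse, Bmp7, Bmp4 and Bmpr1a were higher on average with overlapping groups, Grem1 was lower in 2 of 3 KO mice, and Bmp2, Bmpr1b, Acvr1c and Nog differed by less than 0.05 on the log2 scale. Limma, a linear model with variances moderated across probe sets, called 0 of the 10 at an adjusted p under 0.05, where 0.00575% of all probe sets were called. Adjusted p-values from limma, over all 34760 probe sets, ran from 0.696 to 0.991 in these genes. At an unadjusted p under 0.05 limma gave 1 of 10 higher in KO, Bmp6, where 4.05% of all probe sets were, and 0 of 10 lower, where 2.84% were. That count of higher genes was 0 when WT replicate 2, WT replicate 3 or KO replicate 1 was left out. It was 3 without KO replicate 2 (Bmp6, Bmpr1a and Bmpr2), when Grem1 alone was counted lower. With KO replicate 3 left out it was again 1, but the gene was Bmp7. Over all probe sets, the share at an unadjusted limma p under 0.05 in either direction was 15% without KO replicate 2. That share was 6.89% with all arrays and 4.18% to 5.83% without any other single array. The groups did not overlap, with KO above, for 2 of the 10 (7.1% of all probe sets), and with KO below for 0 (5.97%). The difference was above 0 for 7 of the 10 (50.9% of all probe sets). The median difference of the 10 genes was 0.14, against 0.00 over all probe sets.

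**Figure D1:**
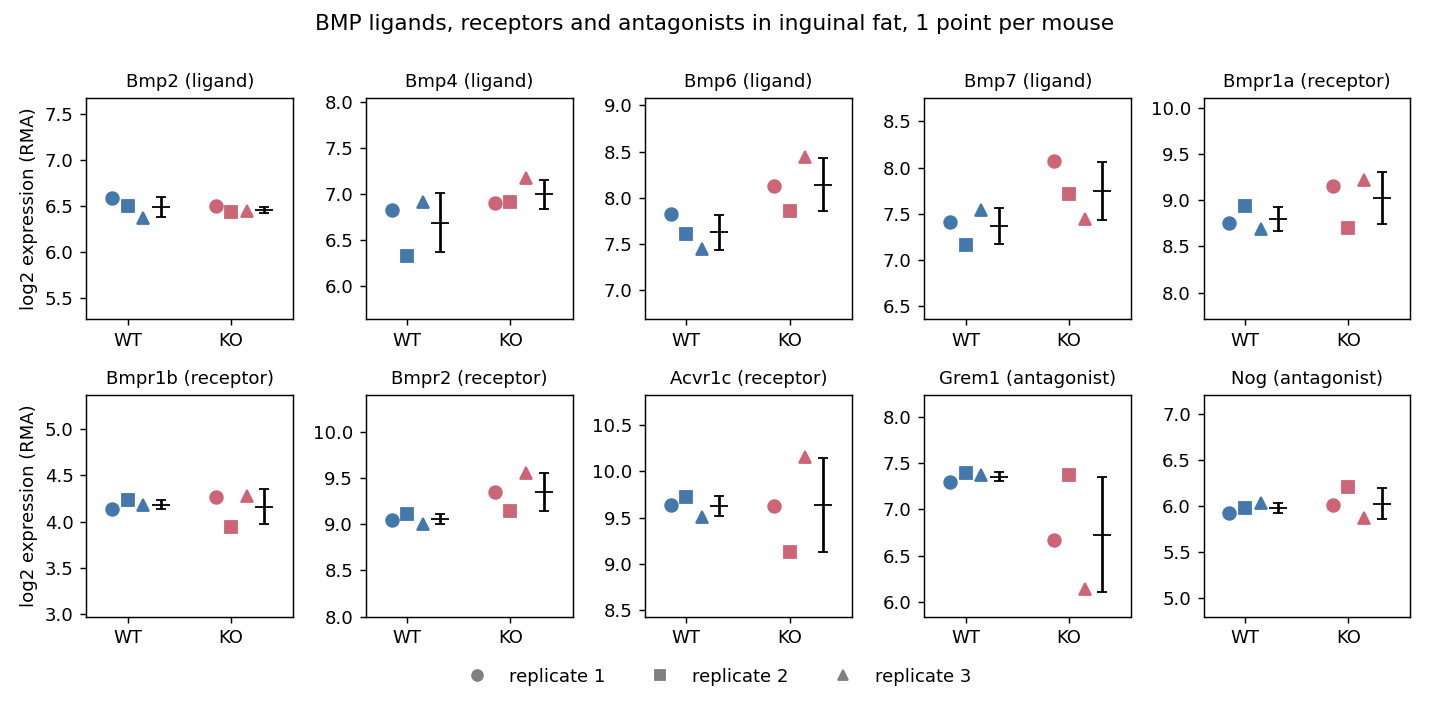
Log2 expression (RMA) of the 10 BMP genes, 1 panel per gene, each panel spanning the same height on the log2 scale; points are mice (circle, square and triangle for replicates 1, 2 and 3; blue WT, red KO) and the black mark beside them is the group mean with its SD (n = 3). Bmp6 and Bmpr2 have all KO points above all WT points, and Grem1 has 2 KO points well below the tight WT points.

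Among the ligands, Bmp6 had the clearest difference. Its level was 7.82, 7.61 and 7.45 in WT replicates 1 to 3 and 8.13, 7.86 and 8.44 in KO replicates 1 to 3. Every KO value was above every WT value, but the gap from the highest WT mouse (replicate 1) to the lowest KO mouse (replicate 2) was only 0.04, against a WT range of 0.37. The means were 7.63 ± 0.19 in WT and 8.14 ± 0.29 in KO (SD, n = 3), a difference of 0.52 (SE 0.18, 95% interval 0.10 to 0.93), or 1.43-fold. Limma's p was 0.0220 unadjusted and 0.696 adjusted over all probe sets, and 5.20% of all probe sets differed by at least as much. The difference was 0.37 without KO replicate 3 and 0.29 when the lymphocyte score was added to the model as a covariate, and its sign was the same in every setting tried. Its unadjusted limma p was 0.0553 and 0.102 in these fits, and it was 0.0515 to 0.0746 with KO replicate 1, WT replicate 2 or WT replicate 3 left out, so of the 6 fits that leave out an array, Bmp6 stayed under 0.05 in those without WT replicate 1 and without KO replicate 2. Endothelial markers, of which Pecam1, Cdh5 and Kdr are defining genes, were at a list level of -0.25 to 0.04 in WT and -0.05 to 0.19 in KO. Of these 10 genes 9 were positive, with Pecam1 at -0.26, and 2 were higher at an unadjusted limma p under 0.05. Mural cell markers, a list opening with Rgs5, Cspg4 and Acta2, did not overlap between groups, at -0.19 to -0.12 in WT and at 0.12, -0.04 and 0.38 in KO replicates 1 to 3, the KO order of Bmp6. All 7 of these genes had a positive difference, 3 of them with an unadjusted limma p under 0.05 (Rgs5, Cspg4 and, named after its value was seen, Myh11). Of all genes, 53% had a positive difference and 4.06% were higher at that p. The part of endothelial and mural cells in the Bmp6 difference was not tested.

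Bmp7, the ligand best known for brown adipogenesis, was 7.41, 7.16 and 7.54 in WT and 8.07, 7.71 and 7.45 in KO. KO replicates 1 and 2 were above all WT mice, while KO replicate 3 lay inside the WT range. The difference was 0.37 (SE 0.18, 95% interval -0.06 to 0.81), or 1.30-fold, with a limma p of 0.0835 before adjustment. Unlike Bmp6, Bmp7 had its lowest KO value in replicate 3. Its difference was 0.52 without that mouse (limma p 0.0216 unadjusted and 0.954 adjusted over all probe sets). After adjustment for the lymphocyte score it was 0.56 (unadjusted limma p 0.0301), and without KO replicate 1 it was 0.21. For every gene here, the fit without KO replicate 3 and the fit with the score are not separate checks. The score was -2.61 in that mouse and -0.09 to 0.81 on the other arrays. None of these settings brought Bmp7 past adjustment over all probe sets.

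Bmp4, which commits precursors to the fat lineage, was 6.83, 6.33 and 6.91 in WT and 6.91, 6.91 and 7.17 in KO. The difference of 0.30 (SE 0.18, 95% interval -0.12 to 0.73) rested largely on WT replicate 2, and it was 0.12 without that mouse. WT replicate 2 also had the lowest Bmp7 value. That array was the highest for markers of ductal epithelium such as Krt8, Krt18 and Epcam, with a list level of 1.35 against -0.30 to -0.22 on the other 5 arrays, and for skeletal muscle markers such as Acta1, Ckm and Myh1 (2.38, with -1.57 to 1.52 elsewhere). Not every gene of these lists was highest there. Esr1, in the ductal list, was 9.67 in KO replicate 3 against 9.52 in WT replicate 2. Myh2, in the muscle list, was 7.43 in KO replicate 1 against 7.17. Both were named after their values were seen. The part of ductal and muscle markers in the Bmp4 and Bmp7 values was not tested. Progenitor and fibroblast markers, a list opening with Pdgfra, Pdgfrb and Dpp4, lay at -0.16 to 0.10 in WT and -0.10 to 0.25 in KO.

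Bmp2, a close relative of Bmp4, hardly varied. It was 6.59, 6.50 and 6.37 in WT and 6.50, 6.44 and 6.44 in KO, with all KO values inside the WT range. The difference was -0.03, with a 95% interval of -0.26 to 0.21. That interval does not include the differences measured for Bmp4, Bmp6 or Bmp7, but it overlaps the 95% interval of each. Differences between genes were not tested.

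Among the receptors, the type II receptor gene Bmpr2 was the one without overlap. It was 9.05, 9.11 and 9.01 in WT and 9.35, 9.14 and 9.55 in KO. The 3 WT mice spanned 0.10, and the lowest KO mouse, replicate 2, exceeded the highest of them by 0.035. Its means were 9.05 ± 0.05 and 9.35 ± 0.20 (SD, n = 3), a difference of 0.29 (SE 0.13, 95% interval -0.01 to 0.59), or 1.23-fold, with a limma p of 0.0535 before adjustment and 0.696 after. It was 0.19 with KO replicate 3 left out, 0.40 with KO replicate 2 left out and 0.14 after adjustment for the lymphocyte score. The mural cell list, described above, had the same order within KO as Bmpr2, and its part was not tested.

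Bmpr1a, the widely expressed type I receptor for BMP2 and BMP4, was 8.76, 8.94 and 8.69 in WT and 9.15, 8.71 and 9.22 in KO. KO replicates 1 and 3 were above all WT mice and KO replicate 2 was near the lowest of them. The difference was 0.23 (SE 0.16, 95% interval -0.15 to 0.61). Leaving out KO replicate 2 gave 0.39, leaving out KO replicate 3 gave 0.13, and the difference was 0.05 after adjustment for the lymphocyte score. Bmpr1b, the other type I BMP receptor gene, was 4.13, 4.23 and 4.18 in WT and 4.27, 3.94 and 4.27 in KO, for a difference of -0.02 (95% interval -0.31 to 0.27). Its mean of 4.17 lies under the 25th percentile of all probe-set means, 5.11, and the table gives no detection call, so whether the transcript was detected is not known here.

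Acvr1c had means of 9.64 in KO and 9.62 in WT, but not the same spread. It was 9.63, 9.72 and 9.51 in WT and 9.63, 9.12 and 10.15 in KO, so the KO mice included both the lowest and the highest of all 6 values. The SD was 0.51 in KO and 0.11 in WT (n = 3 each), and the difference was 0.01 with a 95% interval of -0.58 to 0.61. Leaving out KO replicate 3 gave -0.24, leaving out KO replicate 2 gave 0.27, and it was -0.38 after adjustment for the lymphocyte score (limma p 0.0325 before adjustment and 1 after). The mature adipocyte list moved in the same order within KO, at 0.02, -0.10 and 0.19 in replicates 1 to 3, and was -0.11 to 0.03 in WT. Its part in the Acvr1c values was not tested.

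Grem1, the BMP antagonist gremlin, had the largest difference of the 10 genes and the largest spread in KO. It was 7.30, 7.39 and 7.37 in WT, and 6.66, 7.38 and 6.14 in KO. KO replicates 1 and 3 lay 0.64 and 1.16 below the lowest WT mouse, while KO replicate 2 was inside the narrow WT range. The means were 7.35 ± 0.05 and 6.73 ± 0.62 (SD, n = 3), a difference of -0.63 (SE 0.29, 95% interval -1.32 to 0.06), or 1.55-fold lower, with a limma p of 0.0681 before adjustment and 0.696 after. Of all probe sets, 3.15% differed by at least as much. The value was -0.33 with KO replicate 3 left out and -0.17 after adjustment for the lymphocyte score. With KO replicate 2 left out, the KO mouse inside the WT range, it was -0.95. Limma's p there was 0.00162 unadjusted and 0.272 adjusted over all probe sets, in a fit where 15% of all probe sets had an unadjusted p under 0.05.

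In KO, Grem1 followed the order of the lymphocyte score. It was lowest in replicate 3, intermediate in replicate 1 and at the WT level in replicate 2, as was the score. The defining lymphocyte genes did the same. Cd79a, part of the B cell receptor complex, was 10.10, 10.65 and 5.61 in KO replicates 1 to 3 and 10.43 to 10.91 in WT, and Cd3e, part of the T cell receptor complex, was 9.58, 10.60 and 7.50 against 10.26 to 10.78. Of 7 genes of lymph node stroma and high endothelium listed after these values were seen, 6 were measured. All 6 were lower in the KO mean, while 53% of all genes were higher. Chosen that way, these genes give a description and no test. Their level was -0.10, 0.49 and -2.18 in KO replicates 1 to 3 and 0.42 to 0.78 in WT. The part of lymphocyte and lymph node cells in the Grem1 values was not tested. The covariate above cannot tell it from genotype, as the lowest scores were both in KO, -2.61 in replicate 3 and -0.09 in replicate 1.

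Nog, encoding the antagonist noggin, was 5.93, 5.98 and 6.04 in WT and 6.01, 6.20 and 5.86 in KO. The difference was 0.04 (SE 0.12, 95% interval -0.23 to 0.32) with the groups overlapping. Its highest KO value was in replicate 2 and its lowest in replicate 3, an order shared with Grem1, and the difference was 0.12 if KO replicate 3 was left out and -0.04 if KO replicate 2 was.

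**Figure D2:**
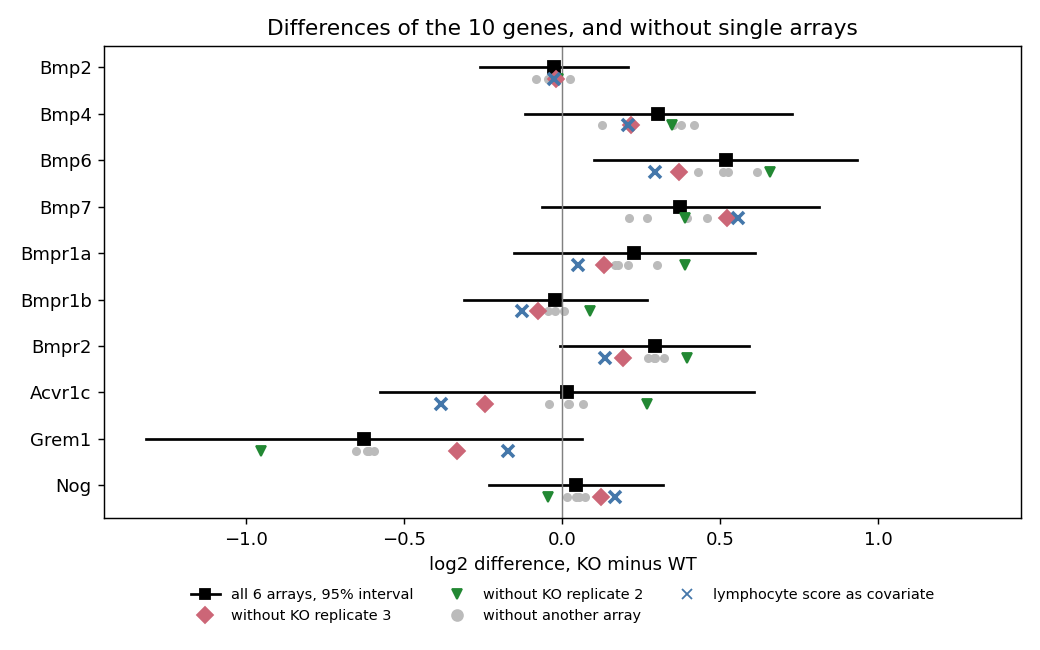
Log2 difference, KO minus WT, of the 10 genes: black squares with lines are the estimates from all 6 arrays with limma's 95% intervals, and the smaller marks under each are the estimates without single arrays and after adjustment for the lymphocyte score. The interval lies wholly above 0 for Bmp6, and the marks spread most for Acvr1c and Grem1.

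The 10 genes varied more among KO than among WT mice. The SD was larger in KO for 8 of the 10, the others being Bmp2 and Bmp4, and for 56.4% of all probe sets. KO replicate 3 was the highest of all 6 arrays for 6 of the 10 genes and for 27.2% of all probe sets, and the lowest for 2 (Grem1 and Nog) and for 21.6% of all. Within KO, Bmp6, Bmpr2, Bmpr1a, Bmpr1b and Acvr1c were ordered with replicate 2 lowest, replicate 1 next and replicate 3 highest, the reverse of the lymphocyte score. Bmp2, Bmp4 and Bmp7 followed neither order. For Bmpr1b, a dim probe set, the order of replicates 1 and 3 rested on 4.267 against 4.272. The share of all probe sets with either order is not given here, so these orders are not shown to be particular to the BMP genes. Over all 6 arrays Bmp6 had the same order as the level of the thermogenic list, which opens with Ucp1, Cidea and Cox7a1. That level was -0.26, -0.54 and -0.66 in WT replicates 1 to 3 and 0.45, 0.31 and 0.72 in KO replicates 1 to 3. Of the 10 genes of that list 9 had a positive difference (53% of all genes). The largest was Ucp1 at 2.905, and the exception was Elovl3 at -0.06, named after its value was seen. The comparison of Bmp6 with the list was chosen after the values were seen and is a description over 6 arrays. How many of all genes share that order is not given here.

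**Figure D3:**
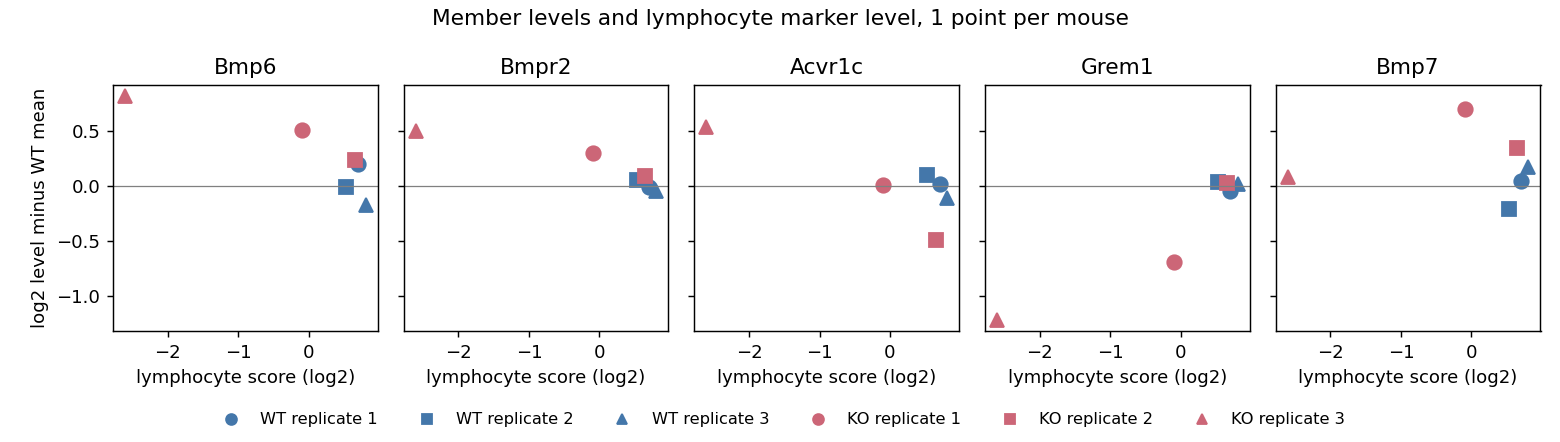
Log2 level of 5 BMP genes relative to their WT mean (vertical) against the lymphocyte score (horizontal, log2), 1 point per mouse (blue WT, red KO; circle, square and triangle for replicates 1, 2 and 3). KO replicate 3, at a score of -2.61, is the highest point for Bmp6, Bmpr2 and Acvr1c and the lowest for Grem1, and KO replicate 2 lies beside the WT mice in score.

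By profile over the 6 arrays, the genes nearest to Bmp6 among 18700 candidates were Cyp2j6, a cytochrome P450 epoxygenase, Fam210a and the integrin activator Fermt2. The measure was the root mean square difference of centred log2 values, which was 0.047 for Cyp2j6, 0.060 for Fam210a and 0.061 for Fermt2. Cyp2j6 was 7.35, 7.18 and 7.06 in WT and 7.69, 7.35 and 7.92 in KO. The genes nearest to Bmpr2 were Ndufa13, a subunit of respiratory complex I, the mitochondrial ribosomal protein gene Mrpl30 and Naxe, an epimerase that repairs damaged NADH, at 0.015, 0.020 and 0.025. Ndufa13 was 9.58, 9.67 and 9.55 in WT and 9.91, 9.73 and 10.11 in KO. Limma's adjusted p was 0.696 for each of these 6 genes.

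The rest of the pathway was read from lists of 80 genes, of which 76 were measured, each by its brightest probe set. Limma called 0 of the 76 at an adjusted p under 0.05, as it did 0% of 19937 genes. Atf7 is among the genes not called, as its brightest probe set is 10433034 and not 10433032, which was called. At an unadjusted p under 0.05, 4 of 76 were higher in KO (4.06% of all genes) and 0 lower (1.79%), while the higher count was 1 with WT replicate 2 or KO replicate 3 left out, 2 with KO replicate 1 left out and 9 with KO replicate 2 left out. The groups did not overlap for 10 genes with KO above (7.96% of all genes) and for 1 with KO below (5.97%). The difference was above 0 for 48 of 76 genes (53% of all genes), with a median of 0.06 against 0.01 over all genes.

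Genes induced by BMP signalling had 9 of 13 differences above 0 (53% of all genes) and a median of 0.16. Of these 13, 5 had all KO values above all WT values (7.96% of all genes) and 2 had a positive difference at an unadjusted limma p under 0.05 (4.06%). Among the 5, Smad6 and Bambi, with gaps of 0.009 and 0.003 between the groups, are also counted in other lists. Bambi was named after its values were seen. Atoh8, a transcription factor induced through SMAD1 and SMAD5, was 7.04, 6.99 and 7.04 in WT and 7.45, 7.27 and 7.25 in KO, a difference of 0.30 (SE 0.10, limma p 0.0191 before and 0.696 after adjustment). Its WT mice spanned 0.05, and the lowest KO mouse was 0.21 above the highest of them. Msx1, a homeobox factor, was 6.66, 6.71 and 6.81 in WT and 7.05, 6.92 and 7.01 in KO, a difference of 0.27 (SE 0.10). After adjustment for the lymphocyte score the differences of Atoh8 and Msx1 were 0.34 and 0.25, and without each array in turn they ran from 0.24 to 0.34 and from 0.23 to 0.31. Atoh8 lay above an unadjusted limma p of 0.05 without WT replicate 2 (0.0543) and without KO replicate 1 (0.0729). Msx1 lay above it after the lymphocyte adjustment (0.0742) and with WT replicate 1, WT replicate 2, KO replicate 1 or KO replicate 3 left out (0.0589 to 0.0943). Id4, of the family of inhibitors of DNA binding, was 0.23 higher without overlap. Its relatives, named here after their values were seen, were not alike: Id1 and Id3 differed by 0.40 and 0.36 with overlapping groups, and Id2 by -0.37. The target list also holds Hamp, encoding hepcidin and likewise named after its value was seen, at -0.48. Hamp was dim, its mean of 4.88 lying under the 25th percentile of all probe-set means, 5.11. Its KO values were 4.70, 5.06 and 4.16. The inhibitory SMAD gene Smad7, in the same list, differed by -0.50, which was -0.22 without KO replicate 3 and -0.09 after adjustment for the lymphocyte score.

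Of the signal transducers, 10 of 18 were above 0 (53% of all genes) with a median of 0.01. Smad5, which carries the BMP signal, was 8.80, 8.72 and 8.82 in WT and 8.98, 8.87 and 9.07 in KO, a difference of 0.19. The inhibitory Smad6 was 0.21 higher, at 7.07, 6.78 and 7.05 in WT and 7.18, 7.08 and 7.26 in KO, and Smad9 was 0.17 higher. These 3 had no overlap between groups, with gaps of 0.05 for Smad5, 0.009 for Smad6 and 0.03 for Smad9, where 7.96% of all genes had KO above WT throughout. Smad6 is one of the 5 target genes above, and Smad9 was named after its values were seen. Without WT replicate 2 the Smad6 difference was 0.11.

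Of the other receptors and co-receptors, 7 of 12 were above 0 (53% of all genes) with a median of 0.06. Rgmb, encoding a BMP co-receptor of the repulsive guidance molecule family, lay between 7.82 and 7.995 in WT and was 8.20, 8.16 and 8.40 in KO. Its difference of 0.32 (SE 0.11) had a limma p of 0.0248 before and 0.696 after adjustment, and it was 0.21 after adjustment for the lymphocyte score. That adjustment brought its unadjusted limma p to 0.108, and leaving out WT replicate 3 or KO replicate 3 brought it to 0.0783 or 0.0695. Rgma, of the same family, differed by 0.36 with overlap, and by 0.18 without KO replicate 3. Acvr1b, the activin type I receptor also called ALK4, was the 1 gene with KO below WT throughout, at 7.83, 7.70 and 7.80 in WT and 7.58, 7.51 and 7.63 in KO.

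Among 11 other ligands 8 were above 0 (53% of all genes), with a median of 0.10. Bmp5, a relative of Bmp6 and Bmp7, was 5.06, 4.83 and 5.15 in WT and 5.27, 5.28 and 5.32 in KO, a difference of 0.28 (SE 0.11, limma p 0.0446 before and 0.696 after adjustment). It was 0.18 without WT replicate 2, and its unadjusted limma p stayed under 0.05 without WT replicate 3 alone (0.029), being 0.0762 to 0.132 with any other array left out. Gdf10 differed by 0.36 with overlapping groups, and by 0.65 or 0.21 where KO replicate 2 or KO replicate 1 was left out. Bmp10 differed by -0.13, or by -0.07 without WT replicate 1, and its mean of 4.14 lies under the 25th percentile of all probe-set means, 5.11. Of 17 other antagonists and extracellular modulators 12 were above 0 (53% of all genes). None of them passed an unadjusted p under 0.05 in limma, where 4.06% of all genes were higher and 1.79% lower. Fstl1, a secreted follistatin-like protein, differed by 0.40, Bmp1, a protease that cleaves chordin and procollagens, by 0.30, and Nbl1, a BMP-binding protein of the DAN family to which gremlin belongs, by 0.28, each with overlapping groups. Without WT replicate 2 these were 0.22, 0.19 and 0.17, and without KO replicate 1 they were 0.24, 0.14 and 0.17.

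The list drawn up for Acvr1c held Gdf3, Nodal, inhibin and activin subunit genes and the co-receptor gene Tdgf1. It is wider than the ALK7 ligands named above, activin B, GDF3 and nodal. It had 4 of 8 differences above 0 (53% of all genes) and a median of 0.01. At an unadjusted limma p under 0.05 it had 0 genes, where 4.06% of all genes were higher and 1.79% lower. Tdgf1, encoding the nodal co-receptor Cripto, was -0.48 with overlap, and -0.24 after adjustment for the lymphocyte score. Inhba, the activin A subunit, differed by 0.31, and by 0.16 without KO replicate 3, and Inhbc by -0.17 with -0.09 without WT replicate 1.

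**Figure D4:**
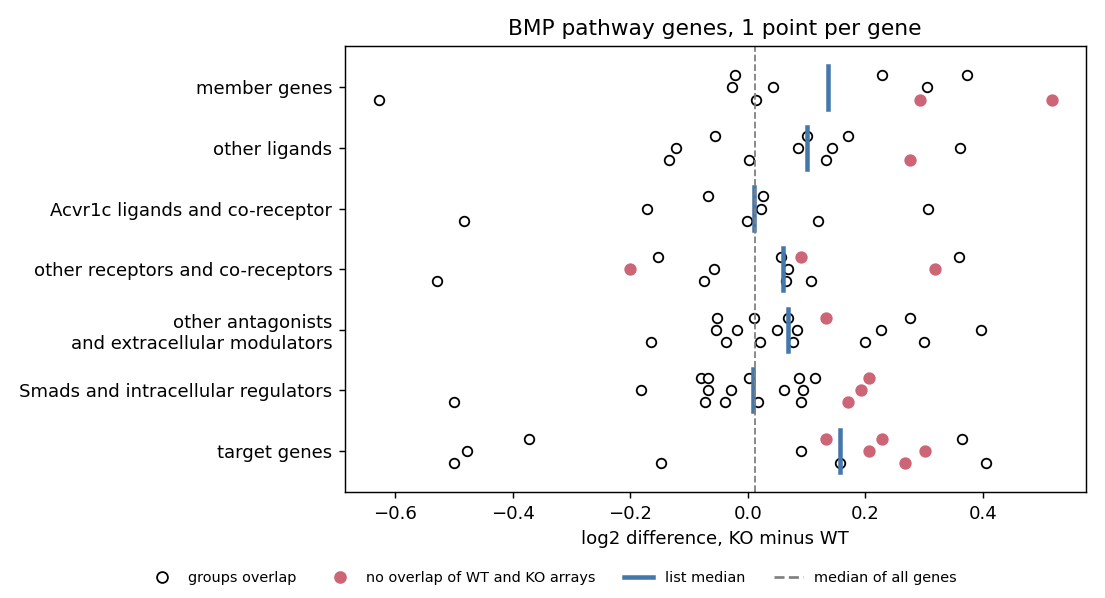
Log2 difference, KO minus WT, of the 10 BMP genes (top) and of the other pathway genes by list, 1 point per gene; filled red points have no overlap between the WT and KO arrays, the blue bar is the list median and the dashed line the median of all genes (0.01). The target genes hold 5 filled points, all with KO above WT, and Grem1 is the lowest point in the plot.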

How the data were processed

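RNA from 6 mice (3 WT, 3 KO, grouped by sample title) was measured on Affymetrix arrays. The deposited table holds log2 values per probe set; the authors made them with RMA, affy and limma, per the submitters' processing notes, with versions and annotation build not given in the sources used here. RMA gives arrays nearly one distribution, which hides any shift common to most genes. Precision is limited by the number of arrays.

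Gene names came from the platform annotation table (21640 with 1 symbol, 1321 with several, 11799 with none), and comparison with RefSeq by Entrez ID updated 0 symbols. Limma 3.58.1 in R 4.3.3 (lmFit, eBayes, two-sided) was fitted over all 34760 probe sets without a filter, with Benjamini-Hochberg adjustment and a threshold of 0.05. Outside the 10 genes, a gene was represented by its brightest probe set. The script was tested on simulated data with 200 changed probe sets. A list's level is the mean of its genes, each centred on its mean over the 6 arrays. Named genes were the 10 members, Atf7, the 3 smallest p of each pathway list, the first 3 markers of each list used and the 3 nearest profiles of the 2 members with the smallest p; others are marked as named after their values were seen. The members and lists were chosen with earlier results of these data known. Alternatives were leaving out each array, the replicate number as a block, other normalizations, a filter on dim probe sets, gene-level tests, other moderation and the lymphocyte score as a covariate. The numbers were not taken as pairs, since no pairing is stated. Same-numbered arrays of both groups showed correlations of their deviations from group means between 0.00 and 0.04, which cannot exclude a pairing.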

Additional observations from a re-analysis of the deposited data

How the results depend on the processing

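In every setting limma called 0 of the 10 BMP genes at an adjusted p under 0.05, and 0 of the 76 other pathway genes in every setting but the mean of all probe sets of a gene, which was not run for them. Bmp4, Bmp6, Bmp7, Bmpr1a, Bmpr2 and Grem1 had the same sign in every setting that tested them. The number of the 10 genes higher at an unadjusted p under 0.05, which was 1, became 2 with quantile normalization repeated, with only probe sets brighter than the median, with 1 probe set or the mean of all per gene, and with trended robust moderation, and ran from 0 to 3 without each array in turn. The number lower, which was 0, was 1 (Acvr1c) after adjustment for the lymphocyte score and ran from 0 to 1 without each array. For the 76 pathway genes, the 4 higher became 1 with the lymphocyte score and 1 to 9 without each array. The 0 lower became 1 with the replicate block, a common median for all arrays or 1 probe set per gene, and 0 to 4 without each array. The share of all features at an unadjusted limma p under 0.05, either direction, was 6.89% in the main fit. It was 7.27% with repeated quantile normalization and 8.5% with brighter probe sets only. With 1 probe set or the mean of all per gene it was 7.47% and 7.5%. It was 6.96% with trended robust moderation, 7.15% with the replicate block, 7.09% with a common median and 4.46% with the lymphocyte score. Without each array it ran from 4.18% to 15%.

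Signs turned for genes near 0. Bmp2 was at 0.00 with a common median (0.001) and with repeated quantile normalization (0.004), and ran from -0.085 to 0.025 without each array. Bmpr1b was at 0.005 with a common median and ran from -0.078 to 0.088 without each array. Nog ran from -0.045 to 0.12. Acvr1c was at -0.015 with repeated quantile normalization and at -0.38 with the lymphocyte score, and ran from -0.24 to 0.27 without each array. The cause was not tested.

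Atf7 probe set 10433032 kept its size but not its call in 4 settings. It was -2.66 with the replicate block (adjusted p 0.0792 by limma) and -2.69 with the lymphocyte score (0.103), and from -2.72 to -2.56 without each array, with adjusted p at 0.0745 without WT replicate 1 and 0.147 without WT replicate 3. Of all probe sets, 2 were called lower at an adjusted p under 0.05 with all arrays and 0 with the replicate block. In the block fit Rgmb, Msx1 and Bmp5 were no longer at an unadjusted limma p under 0.05 (0.0597, 0.0561 and 0.0616), and Inhba and Tdgf1 were (0.035 and 0.0424). Same-numbered arrays correlated at 0.00, 0.03 and 0.04 in their deviations, and arrays of unlike number at -0.06 to 0.026. Such correlations cannot exclude a shared litter or batch, so whether same-numbered mice were paired is not known here. Without KO replicate 2 the share of all probe sets at an unadjusted p under 0.05 was 15%, against 6.89% with all arrays, and it was 4.18% to 5.83% without any other single array. Bmpr1b and Nog, dimmer than the median probe set, gave no value with the filter on dim probe sets, as did Bmp5, Bmp10, Inhba, Inhbc and Tdgf1. Atf7 probe set 10433032 had none with 1 probe set per gene. For 3 mice against 3, no exact permutation p can be smaller than 0.1.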
